A study of Mus musculus with 12 samples.

Results

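Cultures of mouse lung endothelial cells (MLECs) were profiled by RNA sequencing, and 10 genes that mark the lung epithelium rather than the endothelium were followed through the 12 libraries: Sftpc, Sftpb, Sftpa1, Sftpd, Scgb1a1, Epcam, Cdh1, Hopx, Ager and Nkx2-1. They were taken by name as markers of epithelial RNA in bead-selected cultures, and all 10 were present among the 28689 genes of the expression table. The control group (CTR, 6 libraries, genotype WT in the sample labels) came from littermates without the Cre transgene. These littermates carried the same floxed alleles (VE-CAD-CreERT2-/Sp1 fl/fl/Sp3 fl/fl). The knockout group (dKO, 6 libraries) came from VE-CAD-CreERT2+/Sp1 fl/fl/Sp3 fl/fl mice, in which a tamoxifen-activated Cre under the VE-cadherin promoter removes the transcription factors Sp1 and Sp3 from endothelial cells, so that epithelial cells were not the cells targeted. Mice of both groups were males of 6 to 8 weeks, and both received tamoxifen for 5 days. Lungs were digested, cells were selected with beads against CD31, plated, selected again with beads against ICAM2, and used at passages 1 to 3. The question here was how much epithelial RNA these cultures carried and whether its amount differed between dKO and CTR. The number of mice behind each library was not given in the sources used here, so p-values measure the spread between libraries only.

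The lung epithelium lines airways and alveoli. Alveolar type 2 cells make surfactant, the lipid and protein film that lowers surface tension; alveolar type 1 cells are the thin cells of gas exchange that lie against the capillaries; club cells are secretory cells of the airway. Surfactant proteins B and C are small hydrophobic proteins of the film, whereas surfactant proteins A and D are soluble collectins of innate defence. Their genes depend in the lung on NKX2-1, a homeodomain factor of the lung and thyroid lineages. Because alveolar epithelium and capillaries share a basement membrane, a lung digest releases both kinds of cell, and bead selection serves to separate them.

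Sp1 and Sp3 bind GC boxes (GGGCGG), and NKX2-1 binds sites with a CTCAAG core. The RefSeq promoter table (build GRCm38.p6) held windows of 250 bases before to 50 bases after the start for 6 of the 10 genes: Sftpb, Sftpa1, Epcam, Hopx, Ager and Nkx2-1. A GC box on either strand was found in the windows of 2 of these genes, Epcam and Nkx2-1, against 35.7% of all 32851 windows. CTCAAG on either strand was found for 3 genes, Sftpb, Sftpa1 and Hopx, against 15.9% of all windows, and TATAAA on the printed strand for Sftpa1, against 8.32% of all windows. The upstream 250 bases of a pair of genes with a GC box and a pair with CTCAAG are shown because these are the elements of the deleted factors and of the lineage factor. Capitals mark the GC box on either strand, the CTCAAG core on either strand and TATAAA, and no matches overlapped here. Sequences run 5′ to 3′ on the strand of the gene, which is the plus strand for Epcam (chr17:87635729-87635978), Sftpb (chr6:72304360-72304609) and Sftpa1 (chr14:41131538-41131787) and the minus strand for Nkx2-1 (chr12:56536909-56537158).
Epcam: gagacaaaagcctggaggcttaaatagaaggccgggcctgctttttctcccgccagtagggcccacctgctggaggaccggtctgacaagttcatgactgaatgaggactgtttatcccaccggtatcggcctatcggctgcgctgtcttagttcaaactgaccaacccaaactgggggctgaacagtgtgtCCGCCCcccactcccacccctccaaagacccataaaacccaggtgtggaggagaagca
Nkx2-1: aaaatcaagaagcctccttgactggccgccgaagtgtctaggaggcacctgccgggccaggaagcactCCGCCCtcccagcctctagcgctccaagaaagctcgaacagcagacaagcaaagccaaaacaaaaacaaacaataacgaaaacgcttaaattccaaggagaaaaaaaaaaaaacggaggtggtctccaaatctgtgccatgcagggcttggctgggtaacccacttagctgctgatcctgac
Sftpb: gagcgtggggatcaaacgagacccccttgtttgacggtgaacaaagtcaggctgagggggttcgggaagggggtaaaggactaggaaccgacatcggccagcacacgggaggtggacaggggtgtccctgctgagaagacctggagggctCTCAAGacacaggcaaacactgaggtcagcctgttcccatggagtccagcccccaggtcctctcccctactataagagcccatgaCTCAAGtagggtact
Sftpa1: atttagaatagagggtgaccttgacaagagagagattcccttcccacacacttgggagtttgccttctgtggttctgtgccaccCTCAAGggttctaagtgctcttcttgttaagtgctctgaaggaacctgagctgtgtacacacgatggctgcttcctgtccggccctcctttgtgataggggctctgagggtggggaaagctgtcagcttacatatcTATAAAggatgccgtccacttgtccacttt
In these windows the GC box began 58 bases before the start of Epcam and 182 bases before that of Nkx2-1. CTCAAG began 100 and 15 bases before the start of Sftpb and 166 bases before that of Sftpa1, and TATAAA 30 bases before the start of Sftpa1. Such letter matches describe the window and are not measured binding sites.

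Values were deposited as FPKM (fragments scaled to transcript length and to the library total), which allows levels of different genes to be compared per length. Whole fragments could be recovered from the FPKM of 100% of the genes, and library totals lay between 15523054 and 17938286 fragments. The floxed genes served as a check of the labels. Sp1 ranged from 19.4 to 23.7 FPKM in CTR and from 8.42 to 12.1 FPKM in dKO, a log2 fold change of -0.95 (SE 0.09, adjusted p = 5.68e-06, limma). Sp3 stood at 27.7 ± 2.31 FPKM in CTR and 25.0 ± 1.64 FPKM in dKO (SD, n = 6 each), a log2 fold change of -0.14 that missed the threshold (adjusted p = 0.0902, limma), and reads over the deleted exons were not analysed here. The endothelial label held in that all 14 endothelial genes examined were detected, with VE-cadherin (Cdh5) at 66.8 to 111 FPKM in CTR and 125 to 162 FPKM in dKO, but genes typical of other cells were high too. Collagen Col1a1 averaged 1173 FPKM in CTR and 572 FPKM in dKO, and the macrophage lysozyme Lyz2 averaged 746 FPKM in CTR and 1868 FPKM in dKO.

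Sftpc, which encodes surfactant protein C and is made by alveolar type 2 cells, was the most abundant of the 10 genes in every library and ranked 208th of all 28689 genes by mean FPKM. In CTR replicates 1 to 6 it stood at 58.8, 196, 136, 416, 201 and 70.5 FPKM. In dKO replicates 1 to 6 it stood at 145, 114, 246, 307, 175 and 167 FPKM. Its level exceeded that of Cdh5 in 9 of 12 libraries and that of Pecam1, which encodes the bead target CD31, in 12 of 12 libraries. The 6 CTR libraries spanned a 7.09-fold range and enclosed all 6 dKO libraries. The group means, 180 ± 131 FPKM in CTR and 192 ± 71.2 FPKM in dKO (SD, n = 6 each), differed by less than the spread between libraries, with a log2 fold change of 0.32 (SE 0.42, adjusted p = 0.530, limma; exact two-sided permutation p = 0.50). The 95% interval of the log2 fold change ran from -0.61 to 1.26 and so left its sign undetermined.

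The other hydrophobic surfactant protein gene, Sftpb, was far lower, at 5.51, 8.45, 10.9, 16.4, 11.2 and 16.2 FPKM in CTR replicates 1 to 6. In dKO replicates 1 to 6 Sftpb stood at 9.36, 4.64, 11.1, 7.82, 6.73 and 4.98 FPKM. Only 1 of 6 dKO libraries exceeded the CTR median, yet the groups overlapped. The log2 fold change was -0.54 (SE 0.25, adjusted p = 0.0888, limma; exact permutation p = 0.0931), and it passed the threshold when CTR replicate 1 (adjusted p = 0.0188, limma) or dKO replicate 3 (adjusted p = 0.0482, limma) was left out.

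Of the collectins, Sftpa1 varied most. It stood at 3.19, 17.0, 10.8, 31.3, 15.2 and 4.44 FPKM in CTR replicates 1 to 6, a 9.80-fold range. In dKO replicates 1 to 6 it stood at 3.04, 3.94, 11.7, 14.3, 9.40 and 5.74 FPKM. Both groups thus held libraries near 3 FPKM, and the highest values were in the replicates numbered 4. The log2 fold change of Sftpa1 was -0.54 (SE 0.49, adjusted p = 0.367, limma; exact permutation p = 0.342).

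Sftpd, the gene of surfactant protein D, stood at 5.44, 9.96, 10.2, 19.6, 11.99 and 6.15 FPKM in CTR replicates 1 to 6. The dKO replicates 1 to 6 held 6.08, 4.83, 9.11, 10.6, 8.36 and 5.68 FPKM. CTR replicate 4 again lay above all others, and 1 of 6 dKO libraries exceeded the CTR median. The log2 fold change was -0.39 (SE 0.26, adjusted p = 0.227, limma; exact permutation p = 0.206).

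Scgb1a1, the secretoglobin of club cells, stood at 5.67, 16.9, 11.4, 35.0, 13.1 and 7.28 FPKM in CTR replicates 1 to 6. The dKO replicates 1 to 6 held 9.61, 5.95, 16.1, 14.4, 10.9 and 5.31 FPKM. The values rest on 42 to 291 fragments per library, and 42 fragments was the lowest count of any of the 10 genes. The groups overlapped, with a log2 fold change of -0.35 (SE 0.38, adjusted p = 0.450, limma; exact permutation p = 0.435).

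The genes used as markers of alveolar type 1 cells were steadier. Ager, which encodes the receptor for advanced glycation end products, stood at 6.11, 9.84, 9.003, 17.3, 10.5 and 8.97 FPKM in CTR replicates 1 to 6 and at 13.2, 9.53, 12.8, 15.3, 11.2 and 10.5 FPKM in dKO replicates 1 to 6. All 6 dKO libraries lay above the CTR median of 9.42 FPKM, while CTR replicate 4 lay above all of them. The log2 fold change of Ager was 0.26 (SE 0.18, adjusted p = 0.249, limma; exact permutation p = 0.245), and without CTR replicate 4 it was 0.41 (adjusted p = 0.0234, limma). Hopx, a homeodomain-only protein gene of type 1 cells, stood at 3.14, 3.86, 4.22, 5.74, 4.93 and 3.60 FPKM in CTR replicates 1 to 6 and at 2.51, 2.50, 4.32, 5.52, 3.54 and 3.85 FPKM in dKO replicates 1 to 6. Its log2 fold change was -0.17 (SE 0.16, adjusted p = 0.378, limma; exact permutation p = 0.342). Nkx2-1 was the lowest of the 10 genes, at 1.57, 2.12, 2.36, 3.95, 1.87 and 1.86 FPKM in CTR replicates 1 to 6 and 2.27, 2.05, 2.48, 2.73, 2.65 and 1.74 FPKM in dKO replicates 1 to 6. Its log2 fold change was 0.04 (SE 0.14, adjusted p = 0.830, limma; exact permutation p = 0.831).

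The pair of general epithelial adhesion genes behaved otherwise. Epcam, the epithelial cell adhesion molecule gene, stood at 5.09, 4.79, 6.34, 6.01, 5.44 and 6.80 FPKM in CTR replicates 1 to 6. The dKO replicates 1 to 6 held 10.3, 7.39, 7.67, 7.41, 6.16 and 6.64 FPKM. Each dKO library lay above the CTR median, although the lowest dKO libraries overlapped the highest CTR libraries. Epcam rose by a log2 fold change of 0.34 (SE 0.11, adjusted p = 0.0186, limma; exact permutation p = 0.0108). Cdh1, which encodes E-cadherin of adherens junctions, stood at 7.01, 5.64, 9.59, 8.02, 6.86 and 10.1 FPKM in CTR replicates 1 to 6 and at 16.8, 11.2, 10.1, 8.13, 9.50 and 6.60 FPKM in dKO replicates 1 to 6. Its log2 fold change of 0.33 was close to that of Epcam, but with a wider spread (SE 0.18, adjusted p = 0.147, limma; exact permutation p = 0.145).

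**Figure D1:**
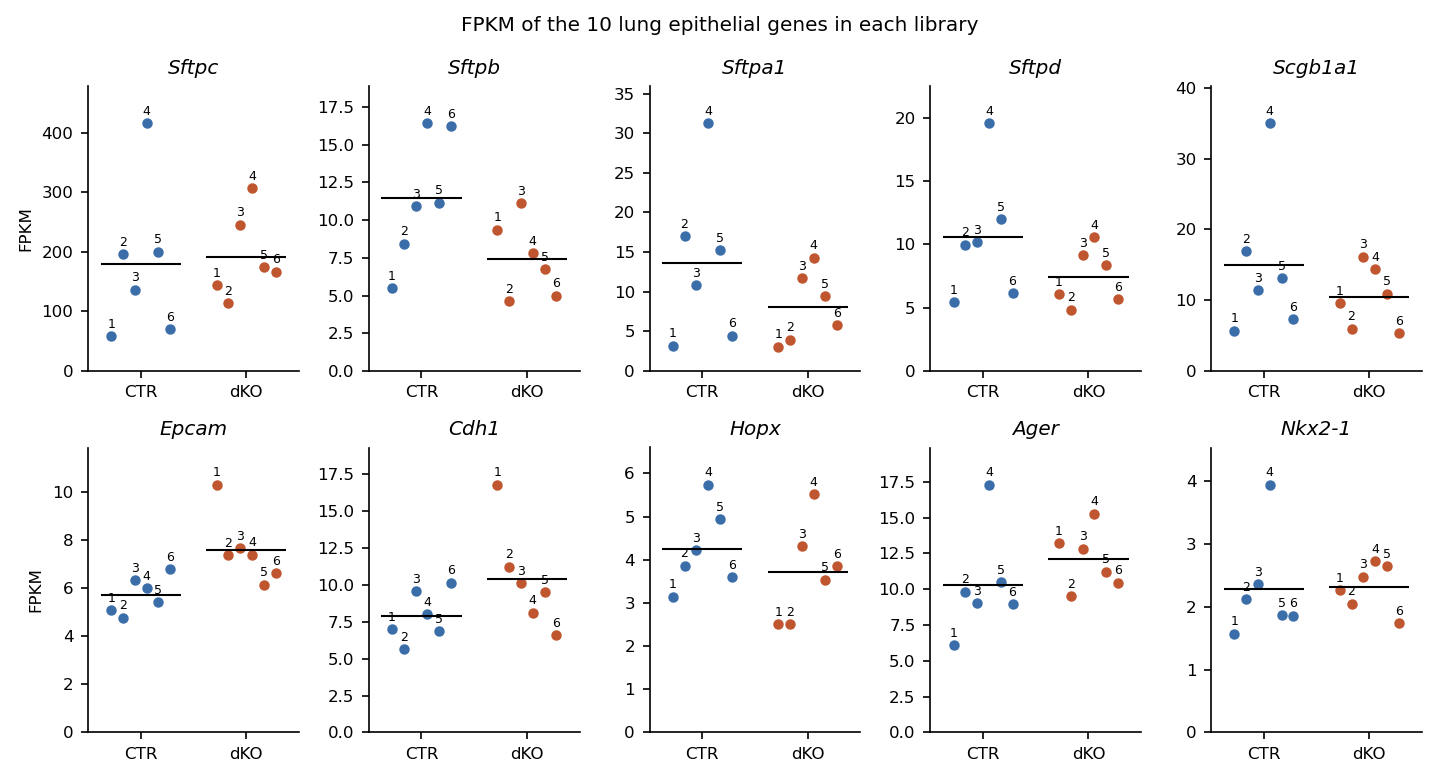
FPKM (linear axes from 0) of the 10 lung epithelial genes in the 6 CTR (blue) and 6 dKO (orange) libraries. Numbers are replicate numbers and black lines are group means; CTR replicate 4 is the highest CTR library in 8 panels, and dKO replicate 1 is the highest library for Epcam and Cdh1.

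In a limma fit over the 12467 genes that reached 1 FPKM in 6 or more libraries, all 10 genes were tested and 1 of 10, Epcam, passed an adjusted p of 0.05. Over all genes tested the same threshold was passed by 53.1%, with 20.4% higher and 32.6% lower in dKO; median-of-ratios scaling turned the higher share of the calls from 38.5% to 51.6%. None of the 10 genes also exceeded an absolute log2 fold change of 1.5 (1.98% of all genes tested), and for none of them were the libraries of the groups fully apart, against 27.4% of all genes tested. By unadjusted limma p, 1 of 10 lay under 0.05 as well. Over all genes tested that share was no lower than 53.1%, since an adjusted p is never below its unadjusted p. The median log2 fold change was -0.07 over the 10 genes and -0.10 over all genes tested, with 5 genes above 0 and 5 below. In bulk RNA, fewer cells of a type and less RNA per cell cannot be told apart.

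**Figure D2:**
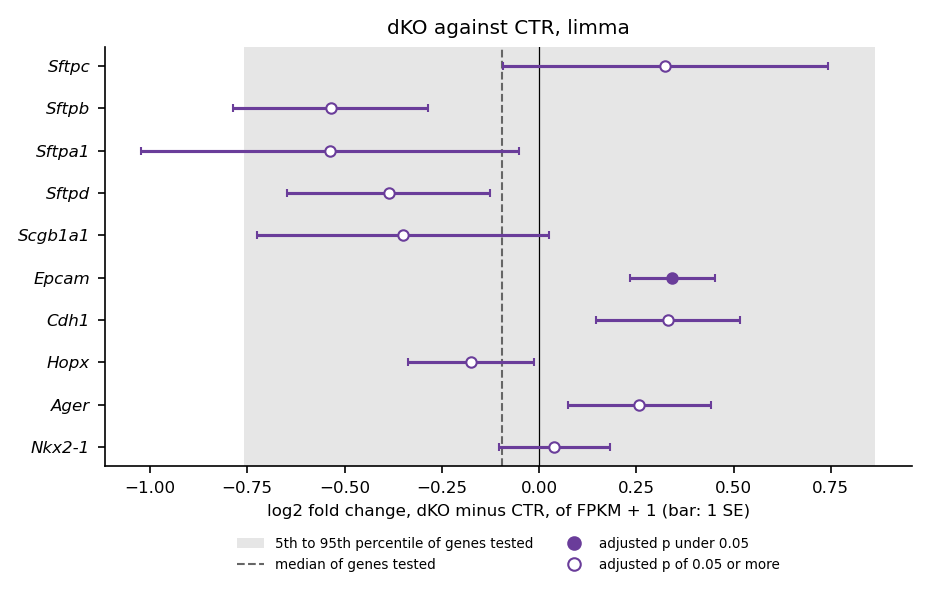
Log2 fold change (dKO minus CTR, on FPKM + 1) of each gene with its standard error from limma. The filled point is Epcam, at 0.34 and the only gene past an adjusted p of 0.05; the grey band spans the 5th to 95th percentile of all genes tested (-0.76 to 0.86), and the dashed line is their median.

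The epithelial genes differed from most genes in how much they varied between libraries of the same group. The within-group SD of log2(FPKM + 1) had a median of 0.42 over the 10 genes and 0.17 over all genes tested, and all 10 lay above the latter. Sftpa1 (0.96), Sftpc (0.82), Scgb1a1 (0.74), Sftpd (0.51) and Sftpb (0.49) stood above the 90th percentile of all genes tested, while Epcam (0.20) stood at percentile 59.1. Counting error was small beside the spread of Sftpc and Scgb1a1, but not beside that of Epcam in CTR or Nkx2-1 in dKO. The coefficient of variation of Sftpc was 72.6% in CTR and 37.1% in dKO, where the counts alone would give 1.77% and 1.71%. For Scgb1a1 it was 71.4% in CTR, with 9.07% from counting. For Epcam it was 13.4% in CTR against 7.07% from counting, and for Nkx2-1 it was 16.3% in dKO against 9.39%.

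**Figure D3:**
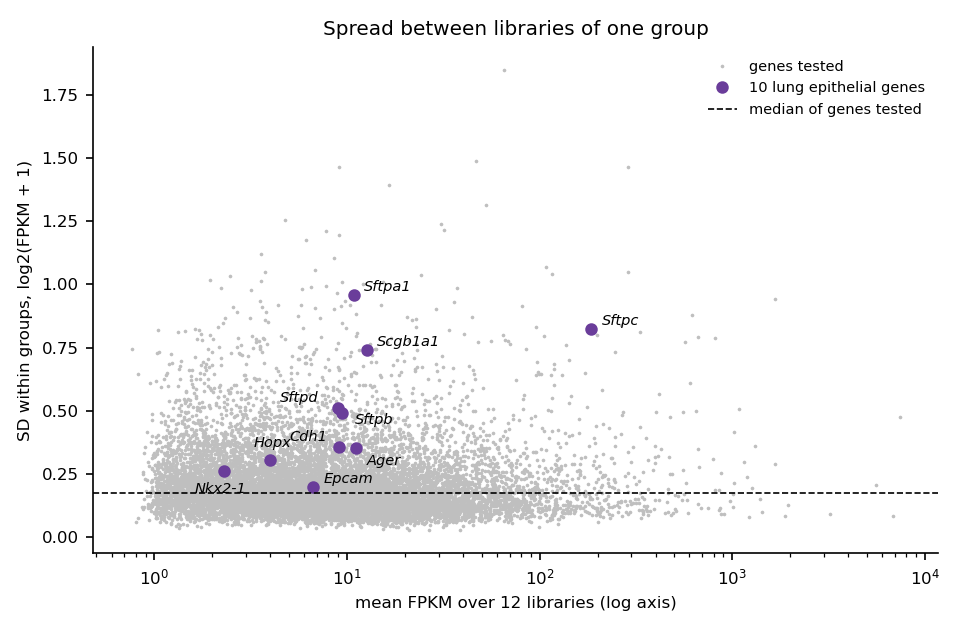
Within-group SD of log2(FPKM + 1) against mean FPKM (log axis) for all genes tested (grey) and the 10 lung epithelial genes (purple). All 10 lie above the dashed median of 0.17, from Epcam at 0.20 to Sftpa1 at 0.96.

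For 8 of the 10 genes the same CTR libraries were at the ends of the range. CTR replicate 4 was the highest and CTR replicate 1 the lowest CTR library for the same 8 genes, all but Epcam and Cdh1. CTR replicate 4 was also the highest CTR library for 25.8% of all genes tested. In dKO, replicate 4 was the highest library for 6 genes (Sftpc, Sftpa1, Sftpd, Hopx, Ager and Nkx2-1), against 15.2% of all genes tested, and replicate 3 for Sftpb and Scgb1a1. Epcam and Cdh1 were instead highest in CTR replicate 6 and in dKO replicate 1. Together the 10 genes took 0.0161% of the fragments in CTR replicate 1 and 0.0722% in CTR replicate 4, with the dKO libraries between 0.0249% and 0.0507%.

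Within each group the levels of the other 9 genes were compared with that of Sftpc on the log2(FPKM + 1) scale, which gave 18 relations of 6 libraries each, with the Benjamini-Hochberg adjustment over the 18 values of each coefficient. In CTR, Sftpa1 followed Sftpc with r = 0.99 (exact permutation p = 0.00278, adjusted 0.015) and rho = 0.94 (exact permutation p = 0.0167, adjusted 0.0375), and r was 0.99 without the 2 libraries farthest from the median. In dKO the same pair gave r = 0.90 (exact permutation p = 0.0153, adjusted 0.0344) and rho = 0.94 (exact permutation p = 0.0167, adjusted 0.0375), with r = 0.87 without the 2 farthest libraries. Sftpd followed Sftpc in both groups, with r = 0.98 in CTR and 0.93 in dKO (exact permutation p = 0.00417 in each, adjusted 0.015) and rho = 0.94 in each (exact permutation p = 0.0167, adjusted 0.0375); without the 2 farthest libraries r was 0.94 and 0.79. Hopx did so too, with r = 0.92 in CTR (exact permutation p = 0.0153, adjusted 0.0344) and 0.95 in dKO (exact permutation p = 0.00972, adjusted 0.0292) and rho = 0.94 in each (exact permutation p = 0.0167, adjusted 0.0375), falling to r = 0.67 and 0.84 without the 2 farthest libraries. Scgb1a1 and Ager passed in CTR, with r = 0.98 and 0.91 (exact permutation p = 0.00278 and 0.00139, adjusted 0.015 for each) and rho = 0.94 and 1 (exact permutation p = 0.0167 and 0.00278, adjusted 0.0375 for each). In dKO they did not, with r = 0.79 and 0.80 (exact permutation p = 0.0667 and 0.0556, adjusted 0.109 and 0.10) and rho = 0.77 and 0.66 (exact permutation p = 0.103 and 0.175, adjusted 0.168 and 0.262). Without the 2 farthest libraries r was 0.95 in CTR and 0.67 in dKO for Scgb1a1, and 0.80 in CTR and 0.16 in dKO for Ager. The relation of Sftpb gave r = 0.45 in CTR and 0.57 in dKO (exact permutation p = 0.379 and 0.256) and rho = 0.60 and 0.54 (exact permutation p = 0.242 and 0.297), with r = -0.89 and 0.46 without the 2 farthest libraries. That of Nkx2-1 gave r = 0.83 and 0.62 (exact permutation p = 0.0319 and 0.186, adjusted 0.0639 and 0.279) and rho = 0.77 in each (exact permutation p = 0.103), with r = 0.25 and 0.35 without the 2 farthest libraries. Epcam showed no such relation, with r = -0.09 in CTR (exact permutation p = 0.828) and -0.15 in dKO (exact permutation p = 0.765), and rho = -0.09 and 0.03 (exact permutation p = 0.919 and 1). Cdh1 gave r = -0.27 and -0.43 (exact permutation p = 0.601 and 0.406) and rho = -0.31 and -0.54 (exact permutation p = 0.564 and 0.297). Without the 2 farthest libraries r was -0.87 and -0.32 for Epcam and -0.84 and -0.31 for Cdh1. The points of each relation come from the same libraries and share their depth and scaling. The share of all genes tested that follow Sftpc in this way was not determined. Pecam1, an endothelial gene, was also highest in CTR replicate 4 (44.0 FPKM) and low in CTR replicates 1 and 6 (27.2 and 26.1 FPKM). These relations therefore cannot be called particular to the epithelial genes.

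**Figure D4:**
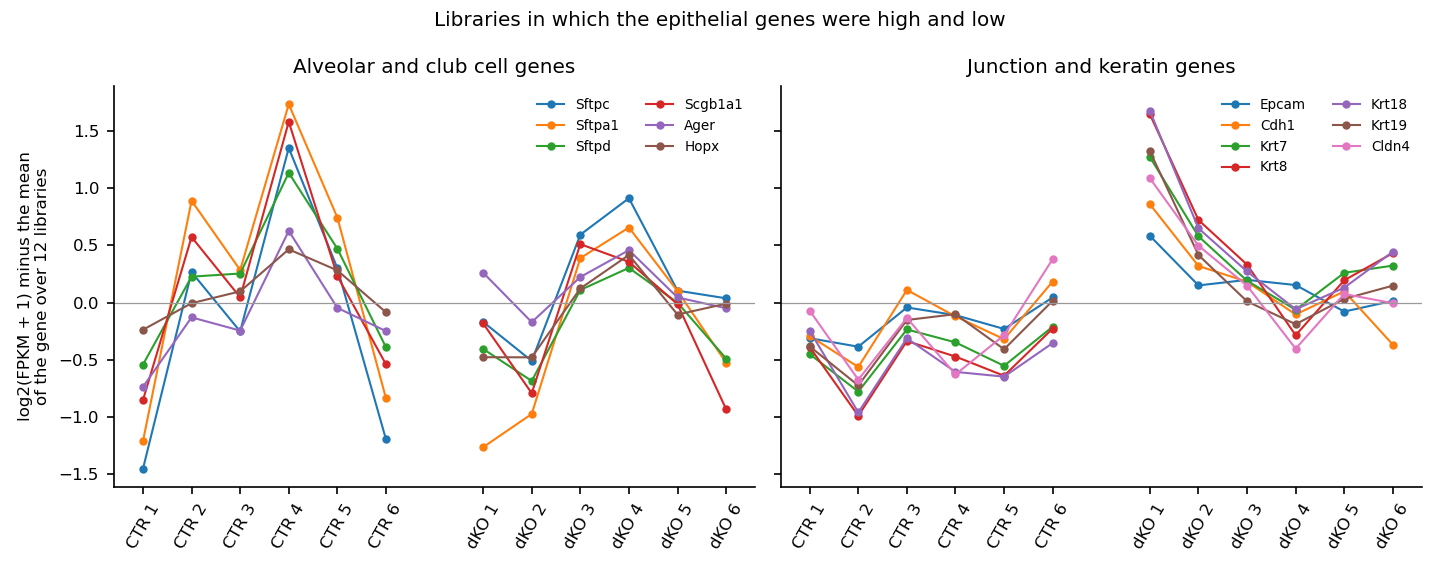
Level of each gene in each library, as log2(FPKM + 1) minus the mean of that gene over the 12 libraries, for 6 alveolar and club cell genes (left) and 7 junction and keratin genes (right). Lines only join the values of one gene; the left set peaks in CTR replicate 4, and the right set peaks in dKO replicate 1.

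The ratio of Sftpc to Sftpa1, to Sftpd and to Scgb1a1 was higher in dKO by the exact permutation test, without adjustment. The ratio of Sftpc to Sftpa1 FPKM was 18.4, 11.5, 12.6, 13.3, 13.2 and 15.9 in CTR replicates 1 to 6. In dKO replicates 1 to 6 it was 47.5, 28.9, 21.0, 21.5, 18.6 and 29.1, so that every dKO library lay above every CTR library. On the log2(FPKM + 1) scale this ratio was 0.86 higher in dKO (exact permutation p = 0.00216, the smallest that 6 libraries against 6 can give). The ratio to Sftpd averaged 15.6 ± 4.35 in CTR and 25.6 ± 3.39 in dKO (SD, n = 6 each), a log2 difference of 0.71 (exact permutation p = 0.00649), with 1 dKO library at 20.9 below the highest CTR library at 21.3. The ratio to Scgb1a1 averaged 11.8 ± 1.93 in CTR and 19.7 ± 6.26 in dKO, a log2 difference of 0.67 (exact permutation p = 0.00433). The ratio to Sftpb averaged 15.7 ± 7.98 in CTR and 26.8 ± 8.45 in dKO, a log2 difference of 0.86 that missed the threshold (exact permutation p = 0.0628). The ratio of the collectins to each other, Sftpa1 to Sftpd, averaged 1.16 ± 0.45 in CTR and 1.01 ± 0.32 in dKO (exact permutation p = 0.602). Neither Ager (log2 difference 0.07, exact permutation p = 0.823) nor Nkx2-1 (0.29, exact permutation p = 0.442) nor Hopx (0.50, exact permutation p = 0.203) nor Epcam (-0.02, exact permutation p = 0.972) nor Cdh1 (-0.01, exact permutation p = 0.996) differed from Sftpc at that threshold. These p-values are unadjusted, and the ratios were examined after the levels had been seen. The share of all genes tested whose ratio of Sftpc passes the same permutation test was not determined. Whether these ratios stand out from those of other genes is therefore not known from this test. Over all other genes tested, 0.273% had all dKO ratios of Sftpc to the gene above all CTR ratios. Relative to Sftpc, the median gene had a log2 fold change of -0.42 (dKO minus CTR). By point estimate alone, a higher ratio of Sftpc in dKO was thus common among the genes tested, while ratios fully apart were rare. Each ratio carries the log2 fold change of Sftpc itself, 0.32, whose sign was undetermined. A limma fit of every gene relative to Sftpc, which moderates each gene toward the spread common to all ratios, called 0.658% of genes lower in dKO. It called 0 of the 9 (adjusted p = 0.666 for Sftpa1 and 0.684 for Sftpd, limma), and 0 of 9 at an unadjusted p under 0.05. Over all genes the share at that unadjusted p was no lower than the 0.658% called. The SE of the 9 ratios lay between 0.507 (Hopx) and 0.512 (Scgb1a1). Log2 differences of 0.86 or less could not pass with such an SE, so this fit cannot decide on these ratios.

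**Figure D5:**
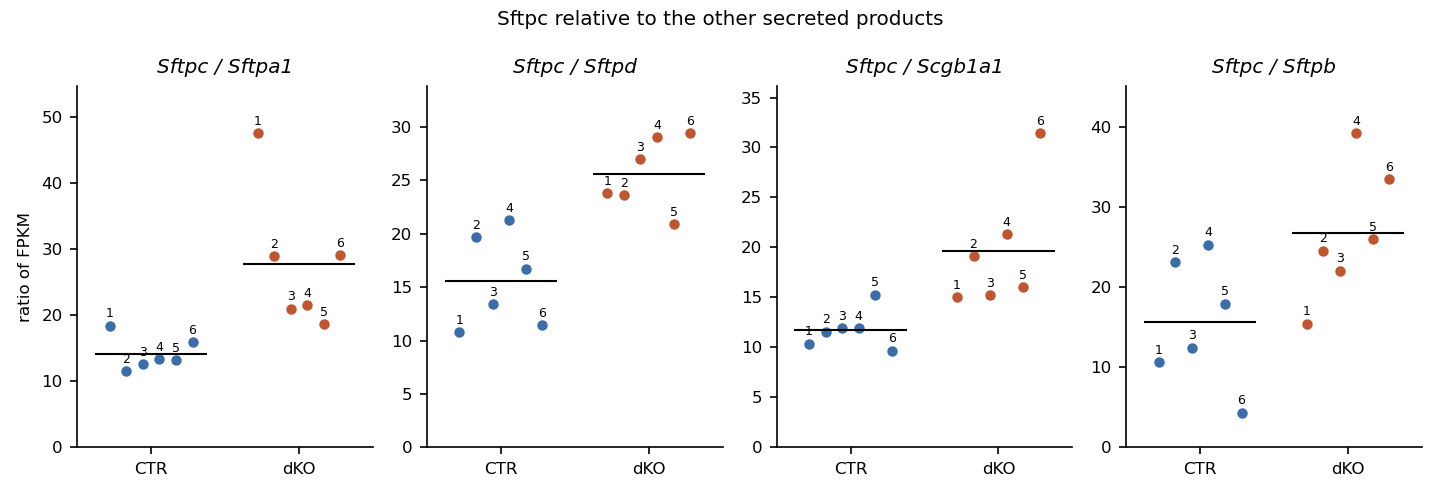
Ratio of Sftpc FPKM to that of Sftpa1, Sftpd, Scgb1a1 and Sftpb in each CTR (blue) and dKO (orange) library, with replicate numbers and group means (black lines), on linear axes from 0. For Sftpa1 the 6 dKO libraries, from 18.6 to 47.5, lie above the 6 CTR libraries, from 11.5 to 18.4; the other panels overlap.

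Other genes of the same cell types were followed in lists that partly include the 10 genes. Of 13 tested genes of surfactant and alveolar type 2 cells, 3 rose, none fell and 10 did not pass, with a median log2 fold change of 0.08 against -0.10 over all genes tested. The 3 of 13 stand beside the 20.4% of all genes tested that were higher in dKO and the 32.6% that were lower. The 3 that rose were Ctsh, a lysosomal cathepsin that processes surfactant protein precursors and is also active in other cells (19.6 ± 5.62 FPKM in CTR and 33.3 ± 5.99 FPKM in dKO, log2 fold change 0.76, adjusted p = 0.00195, limma), Abca3, the lipid transporter of lamellar bodies (log2 fold change 0.41, adjusted p = 0.00877, limma), and Lpcat1, a phospholipid acyltransferase of surfactant synthesis (log2 fold change 0.26, adjusted p = 0.0215, limma). The macrophage genes, which also express lysosomal cathepsins, were higher in dKO for 10 of 10, and their part in the rise of Ctsh was not tested. Fcgr1, counted among these 10, passed the filter only through the dKO libraries. Slc34a2, the phosphate transporter of type 2 cells, averaged 16.1 ± 7.28 FPKM in CTR and 10.1 ± 4.09 FPKM in dKO (log2 fold change -0.60, adjusted p = 0.117, limma). It passed only without CTR replicate 1 (adjusted p = 0.0241, limma). CTR replicate 4 was the highest CTR library for 11 of the 13 genes.

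Among 10 tested genes of alveolar type 1 cells, 2 rose, 2 fell and 6 did not pass, with a median log2 fold change of 0.26. These counts lie near or below the 20.4% of all genes tested that were higher and the 32.6% that were lower. Emp2, a tetraspan membrane protein gene, fell from 111 ± 17.8 FPKM to 56.3 ± 4.01 FPKM (log2 fold change -0.95, adjusted p = 1.04e-05, limma). Unlike Ager, Emp2 was lowest among the CTR libraries in replicate 4, at 84.1 FPKM. Which cells its RNA came from was not tested. Clic5, a chloride intracellular channel gene, rose with a log2 fold change of 0.68 (adjusted p = 0.0066, limma), and Akap5, a kinase anchoring protein gene, with 0.57 (adjusted p = 0.00196, limma). Gprc5a, an orphan receptor gene, averaged 15.1 ± 2.35 FPKM in CTR and 18.3 ± 4.17 FPKM in dKO (adjusted p = 0.122, limma). The fourth gene called was Spock2, a testican proteoglycan gene, named here after its values were seen; it stood at 45.5 FPKM in CTR replicate 4, at 3.46 FPKM in CTR replicate 6 and at 1.08 to 4.69 FPKM in dKO (log2 fold change -1.79, adjusted p = 0.0104, limma). Without CTR replicate 4, 5 of the genes rose, and without both libraries numbered 4, 6 rose.

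Airway genes other than Scgb1a1 were mostly under 1 FPKM. Of 10 club and secretory cell genes in the table, 7 stayed under 1 FPKM in every library: Scgb3a1, Scgb3a2, Cyp2f2, Bpifa1, Bpifb1, Muc5b and Gabrp. Of the 3 tested, 1 rose, against 20.4% of all genes tested. This was Aldh1a1, a retinaldehyde dehydrogenase gene, at 113 ± 34.6 FPKM in CTR and 170 ± 40.0 FPKM in dKO (log2 fold change 0.61, adjusted p = 0.0247, limma), and leaving out CTR replicate 1, 3 or 6 or dKO replicate 4 or 6 ended the call (adjusted p up to 0.0573). Which cells the Aldh1a1 RNA came from was not tested. Cbr2, a carbonyl reductase gene, averaged 10.9 ± 4.65 FPKM in CTR and 13.4 ± 7.03 FPKM in dKO (adjusted p = 0.539, limma). Of 12 ciliated cell genes, 9 stayed under 1 FPKM in every library, and Foxj1, the master regulator of motile cilia, averaged 0.403 ± 0.207 FPKM in CTR and 0.651 ± 0.228 FPKM in dKO. Tekt1, a tektin gene of the ciliary axoneme, averaged 2.27 ± 0.71 FPKM in CTR and 0.273 ± 0.16 FPKM in dKO (log2 fold change -1.34, adjusted p = 1.01e-05, limma). It passed the filter only through the CTR libraries, at 1.49 to 3.17 FPKM, since the dKO libraries held 0.0397 to 0.482 FPKM. Its test is therefore not independent of that selection. Tppp3, a tubulin polymerization gene, did not pass (log2 fold change -0.16, adjusted p = 0.395, limma).

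Of 14 tested genes of epithelial junctions and keratins, 9 rose, none fell and 5 did not pass, with a median log2 fold change of 0.50. Over all genes tested, 20.4% were higher in dKO and 32.6% were lower. The simple-epithelium keratins Krt8 and Krt18, which pair into one filament, rose together. Krt8 averaged 27.8 ± 5.04 FPKM in CTR and 62.0 ± 33.0 FPKM in dKO (log2 fold change 1.02, adjusted p = 0.00492, limma), and Krt18 averaged 20.5 ± 3.81 FPKM in CTR and 46.5 ± 25.1 FPKM in dKO (log2 fold change 1.04, adjusted p = 0.00328, limma). Krt7, another simple-epithelium keratin gene, rose with a log2 fold change of 0.86 (adjusted p = 0.00208, limma). Cldn4, a claudin gene of tight junctions, averaged 20.9 ± 6.18 FPKM in CTR and 30.0 ± 12.02 FPKM in dKO (adjusted p = 0.106, limma). In dKO, replicate 1 was the highest library for 14 of these 14 genes, Epcam and Cdh1 included, against 32.8% of all genes tested, and in CTR replicate 6 was the highest for 10 of 14, against 25.2%. Without dKO replicate 1, 8 of the 14 rose, and over all libraries left out in turn the number ranged from 7 to 10.

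Mesothelial cells, which line the outer lung surface, also make simple-epithelium keratins. Of 6 tested mesothelial genes, 5 rose, against 20.4% of all genes tested. The summed level of the list of 8 ran from 24.7 to 34.7 FPKM in CTR and from 61.5 to 140 FPKM in dKO. Msln (mesothelin) averaged 15.8 ± 3.78 FPKM in CTR and 42.9 ± 19.5 FPKM in dKO (log2 fold change 1.29, adjusted p = 0.00158, limma), with its highest value, 74.4 FPKM, in dKO replicate 1. Upk1b, Lrrn4 and Upk3b, further mesothelial genes, rose with log2 fold changes of 2.48, 1.82 and 1.26 (adjusted p of 3.92e-06, 9.80e-06 and 9.88e-05, limma), and Muc16 stayed under 1 FPKM. Wt1, of the same list, did not pass (log2 fold change 0.13, adjusted p = 0.204, limma). Bnc1 did not reach the filter and averaged 0.835 ± 0.242 FPKM in CTR and 0.731 ± 0.237 FPKM in dKO. The part of mesothelial RNA in the values of Epcam, Cdh1 and the keratins was not tested.

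Of 7 tested lung epithelial transcription factor genes, 1 rose and 6 did not pass, against 20.4% of all genes tested that rose. The median log2 fold change of the 7 was 0.04. The one was Sox9, a factor of distal lung progenitors and of other tissues, at 1.07 ± 0.25 FPKM in CTR and 1.74 ± 0.35 FPKM in dKO (log2 fold change 0.40, adjusted p = 0.00695, limma). Cebpa, a factor also made by macrophages, averaged 11.8 ± 3.66 FPKM in CTR and 16.8 ± 4.85 FPKM in dKO (adjusted p = 0.0559, limma). Cebpa passed, which brought the number that rose to 2, without CTR replicate 4, dKO replicate 2, dKO replicate 5 or both libraries numbered 4 (lowest adjusted p = 0.013, limma). Gata6 (log2 fold change 0.01, adjusted p = 0.947, limma), Irx1 (-0.01, adjusted p = 0.938, limma) and Klf5 (0.24, adjusted p = 0.172, limma) did not pass. Foxa1, Foxp2, Sox2, Elf5, Ehf, Grhl2, Grhl1 and Tfcp2l1 stayed under 1 FPKM in every library.

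The lists for other cells moved beside these genes as follows, where 20.4% of all genes tested were higher in dKO and 32.6% lower. Of 14 endothelial genes 13 rose, among them Tie1 (log2 fold change 1.26), Erg (1.03) and Icam2 (1.25), with Cdh5 at 0.66, Cldn5 at 0.83 and Pecam1 at 0.84, and CTR replicate 4 was the highest CTR library for 12 of 14. The summed endothelial level ran from 243 to 384 FPKM in CTR and from 436 to 595 FPKM in dKO. Of 10 macrophage genes 10 rose, among them Ctss (log2 fold change 2.40), Cd68 (1.96) and Itgam (2.05), and the sum ran from 783 to 1364 FPKM in CTR and from 2350 to 5006 FPKM in dKO. Fcgr1, counted among the 10, passed the filter only through the dKO libraries (1.96 to 17.3 FPKM). In CTR it stood at 0.399 to 0.835 FPKM, so its rise is not independent of the filter. Of 9 fibroblast genes tested 1 rose, Dcn (1.33), and 3 fell, among them Col1a1 (-1.07) and Col1a2 (-0.77), with 2 that rose when CTR replicate 4 or 6 or dKO replicate 1, 3 or 4 was left out, while Fn1 did not pass (0.01). The fibroblast sum ran from 2612 to 3796 FPKM in CTR and from 1362 to 2763 FPKM in dKO. Of 5 tested genes listed for alveolar macrophages, which take up surfactant in the air space, 2 fell, Marco (-1.91) and Car4 (-0.56). Car4 was not called without CTR replicate 3 (adjusted p = 0.0526, limma), and which cells its RNA came from was not tested. Chil3 (-0.14), Ear2 (0.23) and Cd5l (0.33) did not pass. The alveolar macrophage sum ran from 1012 to 1720 FPKM in CTR and from 472 to 1769 FPKM in dKO. The part of these cells in the epithelial values was not tested.

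Positions on GRCm39 and overlaps with other genes were examined because strand use in counting was not given in the sources used here. Sftpc lies on chromosome 14 (70758389 to 70761524, minus strand), and Sftpa1 (40853739 to 40858551, plus strand) and Sftpd (40894170 to 40907128, minus strand) are neighbours on the same chromosome. Epcam lies on chromosome 17 (87943407 to 87958557, plus strand), as does Ager (34816827 to 34819910, plus strand). Exons of Hopx share 864 bases (38.9% of its exon length) with the antisense RNA gene Hopxos, and exons of Sftpd share 628 bases (25.7%) with Mbl1 on the opposite strand. Hopxos held at most 2 fragments and Mbl1 at most 2 fragments in any library, where Hopx held 59 to 152 and Sftpd 206 to 826. Nkx2-1 shares 110 bases (3.62%) with Gm26973, which reached 0.667 FPKM. Sftpb shares 159 bases (7.86%) with Gm67669, and Epcam spans Gm65099 and Gm65095 with 0 shared exon bases; these were not analysed here.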

How the data were processed

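RNA was sequenced from 12 MLEC libraries, 6 CTR and 6 dKO. The authors aligned reads to mm39 and deposited FPKM per gene, normalized to length and library total; the counting program, annotation and strand setting were not given in the sources used here. The labels' extract protocol names retina, whereas tissue and cell type name lung. The columns of the dKO group carry an abbreviation of tamoxifen and were matched to the dKO samples by elimination and replicate number, so every direction rests on this match.

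Ensembl identifiers were paired with symbols through GENCODE vM39. Fragments were recovered as whole multiples of 1 fragment (lengths of 20 to 150000 bases searched), in which 100% of genes came out whole, within the rounding of the table, and totals of 15523054 to 17938286 fragments set the counting error. Genes that reached 1 FPKM in 6 or more libraries (12467) were tested as log2(FPKM + 1) with limma 3.58.1 (R 4.3.3; no block, trended eBayes), with Benjamini-Hochberg adjusted p under 0.05; fold changes on this scale understate the change of low genes. Single values were tested over all 924 splits by exact two-sided permutation (NumPy, Python). Scripts were tested on simulated data. Alternatives were other pseudocounts (0.1 and 0.01), filters, scalings, limma-voom on recovered fragments, a replicate block, no trend, and each library left out. The genes named are the 10, Sp1 and Sp3, genes that overlap the 10, and from each list the 3 highest by mean FPKM and up to 3 with the smallest adjusted p. Spock2, Wt1, Bnc1 and genes under 1 FPKM were named besides. The members and lists were chosen with earlier results of these data known, and the ratios to Sftpc and the omission of both libraries numbered 4 were added after seeing the data. Listed genes Chil1 and Reg3g were not analysed here. A further gene that this rule names is not reported here.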

Additional observations from a re-analysis of the deposited data

Results flagged for a closer look

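Among 24 groups of 6 values examined (the 10 genes and the ratios of Sftpc to Sftpa1 and Sftpd, in each group), 3 held a library far from the other 5; about 1.2 are given by chance. Epcam stood at 10.3 FPKM in dKO replicate 1, against 6.16 to 7.67 FPKM in the other dKO libraries. Nkx2-1 stood at 3.95 FPKM in CTR replicate 4, against 1.57 to 2.36 FPKM in the other CTR libraries. The ratio of Sftpc to Sftpa1 was 47.5 in dKO replicate 1, against 18.6 to 29.1 in the other dKO libraries.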

How the results depend on the processing

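Over 23 alternatives and 10 genes, 224 of 230 values kept the sign and the side of the threshold. Epcam passed in 23 of 23 (adjusted p from 0.00451 to 0.044). The number of the 10 genes that passed, 1, became 2 with the replicate block (Sftpd, adjusted p = 0.0472) and 2 without both libraries numbered 4 (Ager, adjusted p = 0.0471), and ran from 1 to 2 over single libraries left out (Sftpb without CTR replicate 1 or dKO replicate 3, Ager without CTR replicate 4). The fold change of Nkx2-1 ran from -0.024 (without CTR replicate 1, a change of sign) to 0.16 (without CTR replicate 4). No cause was tested for these changes. Over the whole table the calls, 6614, lay between 5858 and 7900 in all alternatives, with 6955 under the replicate block. Whether equal numbers pair the libraries was not given in the sources used here. Same-number correlations of deviations ran from -0.11 to 0.57, with 3 of 6 over 0.1. Of the dKO libraries, 2 of 6 correlated best with their own number. These 6 correlations cannot decide the pairing. The log2 ratio of Sftpc to Sftpa1 lay between 0.73 and 0.95 and that to Sftpd between 0.60 and 0.83 over the pseudocounts and omissions tried. The interval of the Sftpc log2 fold change, -0.61 to 1.26, reflects the spread between libraries rather than depth, since counting error is small.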
